A study of Mus musculus with 4 samples.

Results

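The genes described here encode the 5 subunits of the transcription factor NF-κB (Nfkb1, Nfkb2, Rel, Rela and Relb) and 5 proteins of its inhibitor family IκB (Nfkbia, Nfkbib, Nfkbie, Nfkbiz and Bcl3). They were taken by gene symbol from the annotation of the array. Each of the 10 genes had 1 named probe, and each probe had a value on all 4 arrays, so that all 10 were among the 13765 genes tested. The cells were NSCL61, a mouse glioma-initiating cell line derived from p53-deficient neural stem cells by overexpression of an oncogenic HRas, and the labels give the strain C57BL6, the tissue brain and the stage P0 for every array. NSCL61 cells expressing a short hairpin RNA (shRNA) against Eva1, selected with hygromycin (2 arrays), were compared with control NSCL61 cells (2 arrays). The sample labels of the controls name the line alone, and the series title speaks of a control hairpin. All arrays therefore come from 1 line that carries the same oncogene and the same p53 loss. How many hairpins were used, and whether the selected cells were a pool or a clone, is not given in the sources used here. Whether a group's arrays were separate cultures is not stated, and the p-values therefore cover the spread between these arrays alone, which may be technical.

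NF-κB proteins bind DNA as dimers and are held in the cytoplasm by IκB proteins or by the ankyrin repeats of their own precursors. In the canonical arm, an IκB kinase complex marks the classical IκB proteins for destruction and releases dimers such as RelA with p50, the product of Nfkb1. In the noncanonical arm, the kinase NIK and IKKα cause the Nfkb2 precursor p100 to be cut to p52, which acts with RelB. The nuclear proteins IκBζ (Nfkbiz) and Bcl-3 (Bcl3) bind p50 or p52 dimers on DNA and change which target genes are transcribed. Several genes of the family are themselves targets of NF-κB, as in the resynthesis of IκBα (Nfkbia) after a stimulus. In gliomas the pathway is known for its part in mesenchymal gene expression, survival and inflammatory signalling. The authors of the study have connected Eva1 with the noncanonical arm, and the comparison shows how messenger RNA of the pathway's own components differed when Eva1 was knocked down. An array measures messenger RNA, and neither the cutting of p100 nor the entry of NF-κB into the nucleus is measured here.

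Intensities are the deposited values on a linear scale, with a median near 25 on each array, and levels are log2 intensities after quantile normalization. Every log2 change is Eva1 shRNA minus control. A gene passed the test at an adjusted p under 0.05 in limma (two-sided, Benjamini-Hochberg adjustment over all 13765 genes). Of all genes tested, 26% passed, 12.5% higher and 13.5% lower in Eva1 shRNA cells. The gene encoding Eva1, named Mpzl2 in current nomenclature, had intensities of 8.20 and 6.21 on the Eva1 shRNA arrays, against 55.0 and 54.4 on the control arrays (log2 change -3.12, limma adjusted p = 0.00105). Its change was -1.71 when 16 units were added to every intensity ahead of the logarithm, a step that shrinks differences between dim values. Of 10 neural stem cell markers, 6 were measured on all 4 arrays, among them Nes and Vim, while Gfap and Prom1 were blank on 2 and 1 arrays and Sox2 had no named probe. The median log2 change of the 6 was -0.36, with 2 above 0 and 4 below, and 1 passed. This was Fabp7, a marker of radial glia named after its value was seen, which fell by 1.15 (limma adjusted p = 0.00521). Vim and Hes1 had log2 changes of 0.33 and 0.07 and did not pass. Prom1, which entered no test, read 11.8 and 9.76 on the Eva1 shRNA arrays, against 3.25 on control array 1.

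Before the values, the DNA at the starts of these genes is shown, because κB sites are the elements through which family members are known to regulate one another. RefSeq promoter windows of the mouse build GRCm38.p6, each with 250 bases before and 50 after an annotated start, were found for 7 of the 10 genes. They were searched on both strands for the κB consensus, which reads 3 G, a purine, 2 bases of any kind, 2 pyrimidines and 2 C. The windows of 5 of the 7 genes held a match, and 9.55% of the 27025 genes with a window did. Nfkb2 has 3 annotated starts and therefore more sequence to match. A match is a description of the letters and not of binding in these cells. Each match is given below in 30 bases, 5′ to 3′ along the gene, with the matching bases in capitals (11 capitals where matches overlap).
Nfkbie, chr17:45555584-45555613, + strand: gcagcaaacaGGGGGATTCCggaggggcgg
Bcl3, chr7:19822734-19822763, - strand: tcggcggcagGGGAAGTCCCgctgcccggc
Nfkbia, chr12:55492657-55492686, - strand: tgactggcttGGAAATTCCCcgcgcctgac
Rel, chr11:23771041-23771070, - strand: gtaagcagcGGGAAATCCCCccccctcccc
Nfkb2, chr19:46304689-46304718, + strand: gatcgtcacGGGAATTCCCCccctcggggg
Nfkb2, chr19:46304716-46304745, + strand: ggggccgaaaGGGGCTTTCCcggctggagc
Nfkb2, chr19:46305449-46305478, + strand: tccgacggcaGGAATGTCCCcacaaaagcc
Nfkb2, chr19:46305695-46305724, + strand: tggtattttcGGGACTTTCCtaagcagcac
The match of Bcl3 lies just after the annotated start, the match of Nfkbie lies 106 to 97 bases before it, and that of Nfkbia 29 to 20 bases before it. Matches of Nfkb2 occur near more than 1 of its starts. The windows of Nfkbib and Rela held no match to these letters. Nfkb1, Relb and Nfkbiz had no window and were not searched, so nothing is known here of κB matches at their starts.

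Nfkbie and Nfkbia are the classical IκB genes with a match, and of these Nfkbie passed the test on the arrays and Nfkbia did not. The 250 bases before their annotated starts are given whole, with the κB match in capitals.
Nfkbie, chr17:45555450-45555699, + strand: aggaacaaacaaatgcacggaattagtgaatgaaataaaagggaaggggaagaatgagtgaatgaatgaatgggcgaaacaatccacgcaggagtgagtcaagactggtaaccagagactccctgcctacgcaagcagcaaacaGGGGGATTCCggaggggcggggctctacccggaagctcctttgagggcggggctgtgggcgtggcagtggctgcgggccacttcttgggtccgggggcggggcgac
Nfkbia, chr12:55492648-55492897, - strand: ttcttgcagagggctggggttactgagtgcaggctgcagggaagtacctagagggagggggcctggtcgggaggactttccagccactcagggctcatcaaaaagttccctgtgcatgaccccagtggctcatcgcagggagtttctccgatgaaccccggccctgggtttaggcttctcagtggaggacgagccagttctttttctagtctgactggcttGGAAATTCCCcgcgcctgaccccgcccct

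Across the family, 3 of 10 genes passed the test, a share of 30% beside 26% of all genes. Nfkbie and Bcl3 rose and Nfkbiz fell, and all 3 encode IκB proteins. None of the 5 subunit genes passed (0 in limma, and 0 at an unadjusted p under 0.05), although Relb passed under 1 of 14 alternatives, the variance trend. The median log2 change of the 10 genes was 0.0012, beside -0.01 for all genes. The groups did not overlap after normalization for 7 of the 10 genes (70%), beside 66.7% of all genes. With 2 arrays against 2, an exact permutation test of a single gene cannot give a two-sided p under 0.333.

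**Figure D1:**
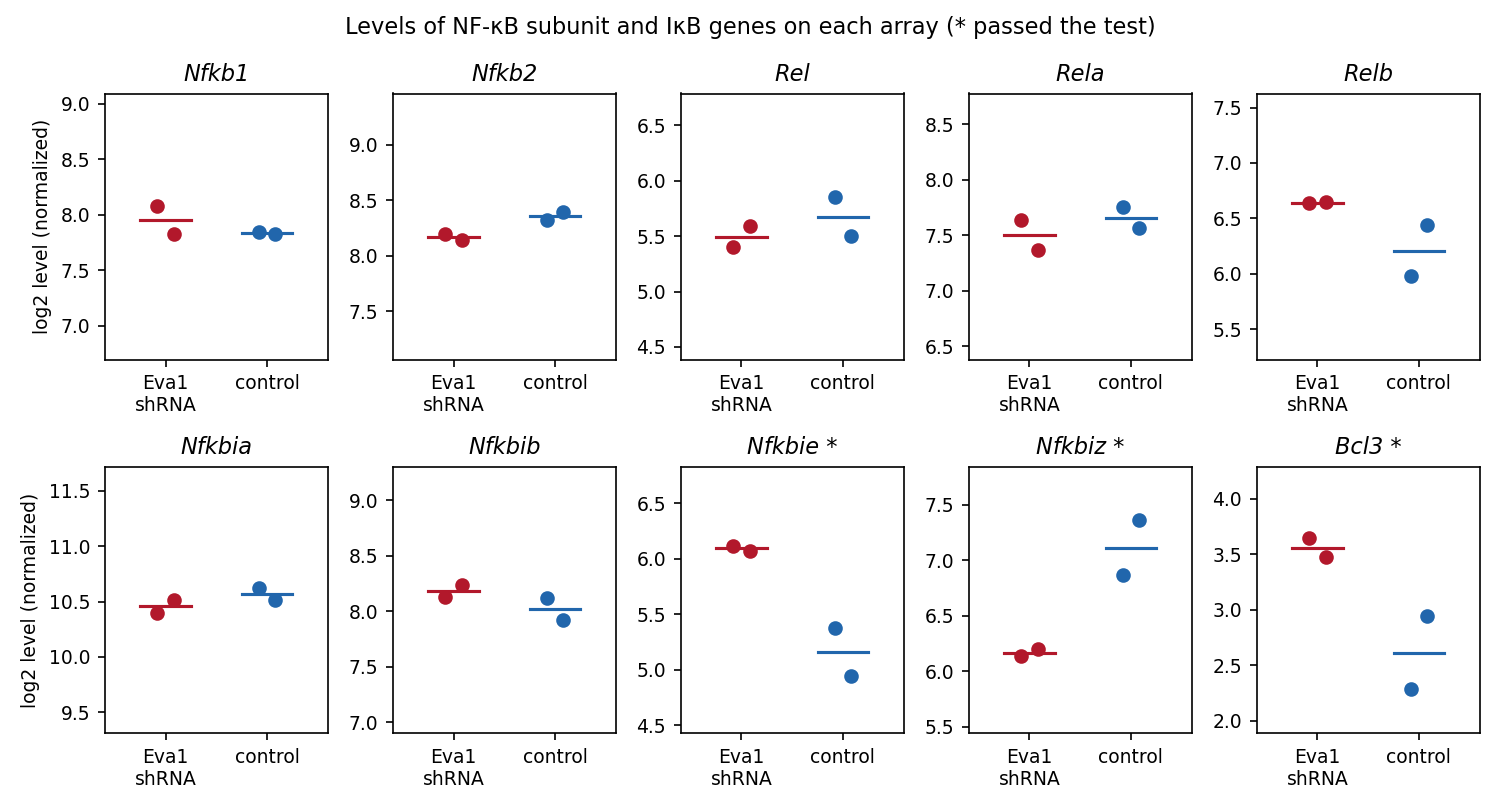
Normalized log2 level (y axis, each panel spanning the same range) of the 10 genes on each Eva1 shRNA array (red) and control array (blue). Lines are group means, and the asterisk marks the 3 genes that passed the test. Eva1 shRNA arrays lay above both controls for Nfkbie and Bcl3 and below both for Nfkbiz.

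The subunits of the canonical arm showed small differences. Rela encodes p65, the main activating subunit of canonical dimers. It had intensities of 216 and 171 on the Eva1 shRNA arrays, against 201 and 179 on the control arrays, and the control values lay between those of the Eva1 shRNA cells. Its log2 change was -0.16 (95% interval -0.58 to 0.27, limma adjusted p = 0.533). Nfkb1, which encodes p105 and p50, had intensities of 290 and 234 on the Eva1 shRNA arrays, against 217 and 214 on the control arrays. Both Eva1 shRNA intensities were above both controls as deposited, but after normalization the lower one (7.83) fell between the control levels of 7.85 and 7.82. The log2 change of Nfkb1 was 0.12 (95% interval -0.27 to 0.51, adjusted p = 0.615). Rel encodes c-Rel, a subunit best known in lymphocytes. Its intensities were 46.3 and 50.0 on the Eva1 shRNA arrays, against 53.3 and 43.2 on the control arrays, so the controls enclosed the Eva1 shRNA values. The log2 change of Rel was -0.18 (95% interval -0.63 to 0.27, adjusted p = 0.503).

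The subunit genes of the noncanonical arm did not pass the test either. Nfkb2, which encodes p100 and p52, had intensities of 317 and 296 on the Eva1 shRNA arrays, against 301 and 315 on the control arrays. The deposited intensities overlapped, while the normalized levels of 8.19 and 8.14 in Eva1 shRNA cells were both below the 8.32 and 8.39 of the controls. The log2 change of Nfkb2 was -0.19, with a 95% interval of -0.54 to 0.15 (limma adjusted p = 0.353). Relb, which encodes the partner of p52, had intensities of 109 and 105 on the Eva1 shRNA arrays, against 58.3 and 82.1 on the control arrays. Both Eva1 shRNA arrays stood above both controls, and the controls were far apart, with an SD of the log2 level of 0.32 against 0.0039 in Eva1 shRNA cells (n = 2 each). The log2 change of Relb was 0.43 with a 95% interval of -0.05 to 0.92, and it did not pass (adjusted p = 0.16). The difference was 0.20 without control array 1 and 0.66 without control array 2, and the adjusted p was 0.0491 with a variance trend.

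The 3 classical IκB proteins hold NF-κB dimers in the cytoplasm, and of their genes only Nfkbie passed. Whether their changes differed from each other was not tested. Nfkbie encodes IκBε, which is known to bind RelA and c-Rel dimers and to be made again after a stimulus more slowly than IκBα. Its probe read 76.4 and 70.2 on the Eva1 shRNA arrays, against 38.1 and 29.2 on the control arrays. Every Eva1 shRNA value was well above every control value. Nfkbie rose 1.91-fold (log2 change 0.93, standard error 0.19, limma adjusted p = 0.0218). Nfkbia encodes IκBα, the inhibitor that is lost and resynthesised fastest. It had intensities of 1446 and 1496 on the Eva1 shRNA arrays, against 1533 and 1374 on the control arrays, and the controls enclosed the Eva1 shRNA intensities. After normalization both Eva1 shRNA levels lay marginally below both controls. The log2 change of Nfkbia was -0.11 (95% interval -0.47 to 0.24, adjusted p = 0.593), so its interval does not reach a 1.5-fold change in either direction. Nfkbib encodes IκBβ. It had intensities of 301 and 316 on the Eva1 shRNA arrays, against 261 and 231 on the control arrays. Both Eva1 shRNA values were above both controls, by a log2 change of 0.16 that did not pass (95% interval -0.22 to 0.54, adjusted p = 0.465).

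Both genes of nuclear IκB proteins passed, in opposite directions. Nfkbiz encodes IκBζ, which is induced by Toll-like receptor and interleukin-1 signals and is needed for secondary targets such as Lcn2 and Il6. Its intensities were 78.0 and 77.0 on the Eva1 shRNA arrays, against 108 and 156 on the control arrays. The Eva1 shRNA arrays nearly coincided and lay below both controls, which differed from each other. Nfkbiz fell to 0.519 times its control level, a log2 change of -0.95 (standard error 0.20, limma adjusted p = 0.0254). Of the targets named above, Lcn2 fell by 0.81 and Il6 rose by 0.94 (limma adjusted p = 0.0398 and 0.0168). A link of either to Nfkbiz was not tested. Bcl3 encodes Bcl-3, which can turn p50 or p52 homodimers into activators or keep them on DNA as repressors. Its intensities were 14.0 and 11.6 on the Eva1 shRNA arrays, against 4.32 and 7.39 on the control arrays, with no overlap. Bcl3 rose 1.93-fold, a log2 change of 0.95 (standard error 0.25, adjusted p = 0.0437). The probe was dim: on control array 1, 95% of the values from probes that were blank on some other array lay below 3.95, close under the Bcl3 value of that array. With 16 intensity units added, Bcl3 changed by 0.32 and Nfkbie by 0.70.

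**Figure D2:**
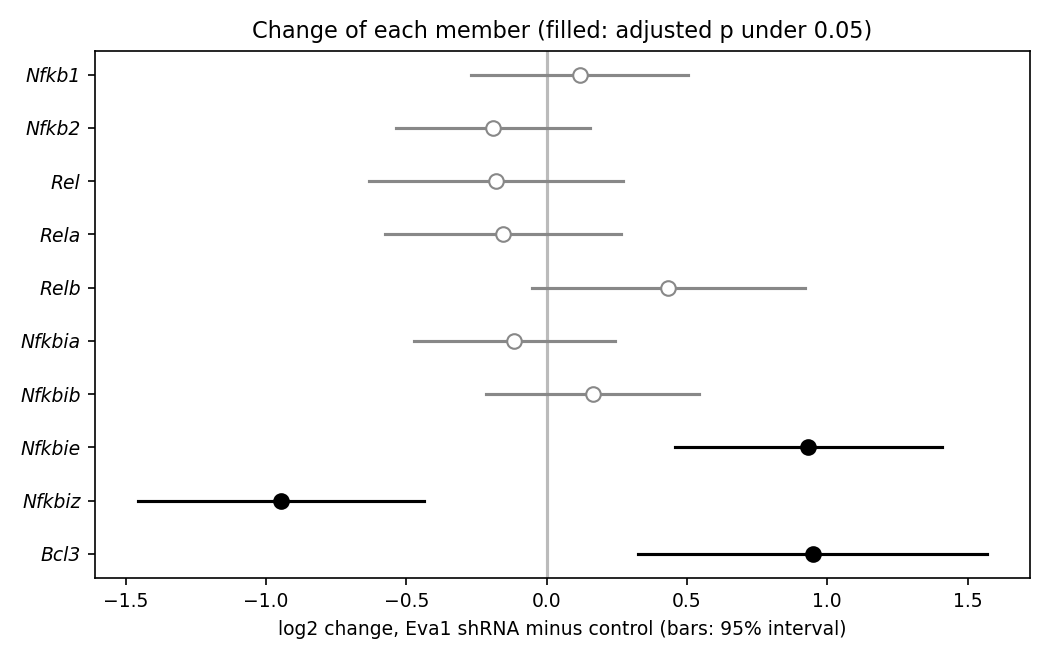
Log2 change (Eva1 shRNA minus control) of each of the 10 genes with its 95% interval from limma. Filled points passed the test: Nfkbie at 0.93, Nfkbiz at -0.95 and Bcl3 at 0.95, while the intervals of the other 7 genes include 0.

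The 3 calls rested on few arrays. In 7 of the 10 members, all 3 of these genes among them, the control arrays were farther apart than the Eva1 shRNA arrays. For Nfkbie, Nfkbiz and Bcl3 the SDs of the log2 level were 0.03, 0.04 and 0.13 in Eva1 shRNA cells. In control cells they were 0.31, 0.35 and 0.47 (n = 2 each). With 1 array left out, Nfkbie no longer passed without control array 2 (adjusted p = 0.0557), Eva1 shRNA array 1 (0.107) or Eva1 shRNA array 2 (0.0932). Nfkbiz no longer passed without the same arrays (0.0599, 0.117 and 0.101). Bcl3 no longer passed without control array 1 (0.0983) or Eva1 shRNA arrays 1 (0.176) or 2 (0.121), and its log2 change was 0.61 without control array 1. Leaving out Eva1 shRNA array 1 or 2 left 0 members and 1271 or 1461 genes passing, against 3576 with all arrays, and leaving out control array 1 or 2 left 2 or 1 members and 1832 or 2301 genes. Each direction was the same whichever array was left out. Nfkbiz also missed the threshold under the authors' scaling alone (adjusted p = 0.0506) and with blank cells filled (0.0504). Bcl3 missed it with blank cells filled (0.0785), with the array number as a replicate block (0.0501) and with every probe as its own unit (0.0534). Under the authors' scaling the median log2 change of all genes was 0.18 in place of -0.01, and 67.7% of the calls were higher in place of 48.1%. The log2 changes of Rel, Rela and Nfkbia, none of which passed, were then 0.0053, 0.02 and 0.02, above 0.

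**Figure D3:**
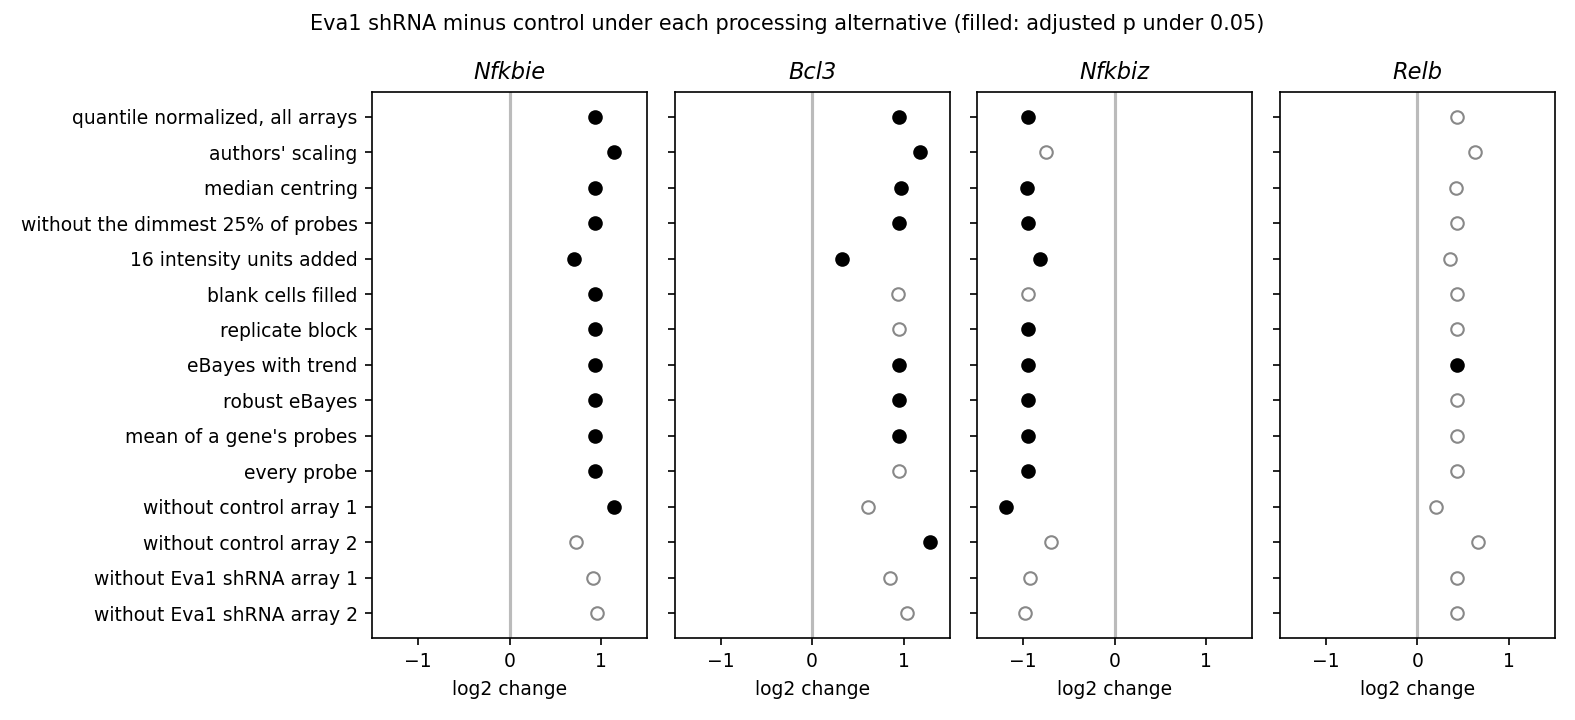
Log2 change of Nfkbie, Bcl3, Nfkbiz and Relb (x axes, Eva1 shRNA minus control) under each way of processing the arrays (rows). Filled points passed the test. The sign of each gene is the same in every row, Nfkbie passed in 11 of the 14 alternatives, Nfkbiz in 9, Bcl3 in 8 and Relb in 1.

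Genes around the family were read from lists of the pathway. Of 18 tested components of the noncanonical arm, 3 rose, 1 fell and 14 did not pass (22.2% passing, beside 26% of all genes), with a median log2 change of -0.33. Without the dimmest 25% of probes (15 tested) and with 16 units added 3 rose and 5 fell. With a variance trend 3 rose and 7 fell, and at an adjusted p under 0.1 3 rose and 4 fell. More of all genes passed in these settings too. In the same order they were 4537 of 10679, and 4914, 5000 and 5029 of 13765, against 3576 of 13765. The genes that rose act upstream of NIK, a position that does not say whether each drives or restrains the arm. Ltbr, the lymphotoxin β receptor, rose by 1.45 (limma adjusted p = 0.00283), the ubiquitin ligase gene Birc3 by 1.62 (0.00793) and the adaptor gene Traf2 by 0.88 (0.0107). Ltbr had intensities of 113 and 108 on the Eva1 shRNA arrays, against 35.1 and 34.9 on the control arrays, with no overlap and little spread. Otud7b, which encodes a deubiquitinase that restrains the arm through TRAF3, fell by 0.65 (adjusted p = 0.0487), and it missed the threshold without any 1 of the 4 arrays (up to 0.203 without Eva1 shRNA array 2), under the authors' scaling (0.122), under median centring (0.05001), with blank cells filled (0.0789) and with every probe as its own unit (0.0604). Traf2 missed it without either Eva1 shRNA array (0.0706 without array 1). Chuk, the gene of IKKα, was named after its value was seen: its log2 change was -0.40 and it did not pass (adjusted p = 0.15). Map3k14, the gene of NIK, had no named probe. The change of Birc3, whose control intensities were 4.91 and 3.84, was 0.55 with 16 units added. Leaving out Eva1 shRNA array 1 or 2 left 2 components of the noncanonical list passing.

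In the canonical list 3 genes rose, 5 fell and 18 did not pass, of 26 tested. The share passing was 30.8%, beside 26% of all genes, and the median log2 change was -0.05. With the authors' scaling 5 rose and 3 fell. The 3 that rose were Toll-like receptor genes, which encode sensors of microbial products. Tlr2 had intensities of 127 and 86.9 on the Eva1 shRNA arrays, against 15.3 and 13.4 on the control arrays, a log2 change of 2.67 (limma adjusted p = 0.00213). Tlr4 rose by 1.59 (0.0025) and Tlr3 by 1.59 (0.0149). Tlr2 and Tlr4 passed whichever array was left out, while Tlr3, whose control intensities were 3.70 and 6.95, missed the threshold without Eva1 shRNA array 1 or 2 (adjusted p up to 0.0774) and changed by 0.59 with 16 units added. Rnf31, the catalytic ligase of the linear ubiquitin complex, fell by 1.07 (0.0129), and it missed the threshold without control array 1 or 2 or Eva1 shRNA array 1 (up to 0.0674). Ikbkb, the gene of the IκB kinase IKKβ and chosen with its value known, had intensities of 73.2 and 107 on the Eva1 shRNA arrays, against 169 and 169 on the control arrays. It fell by 1.12 (adjusted p = 0.022) and missed the threshold without control array 1 or 2 or Eva1 shRNA array 1 (up to 0.0921). The canonical components that passed numbered 2 without Eva1 shRNA array 1, 4 without Eva1 shRNA array 2, 3 without control array 1 and 4 without control array 2.

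Of 16 other inhibitors and regulators tested, 4 fell, 0 rose and 12 did not pass (25% passing, beside 26% of all genes). At an unadjusted p under 0.05 in limma were 8 of these 16, beside 5526 of all 13765 genes. The median log2 change of the 16 was -0.17. With the authors' scaling 2 rose and 2 fell. Without the dimmest 25% of probes 2 rose and 5 fell, and with 16 units added 3 rose and 6 fell. With a variance trend 3 rose and 5 fell, and at an adjusted p under 0.1 2 rose and 5 fell. The counts of all genes in these settings, which were also higher, are given above with the noncanonical list. Nkiras1 encodes a small Ras-like protein that binds IκBβ and slows its loss. It had intensities of 85.4 and 70.6 on the Eva1 shRNA arrays, against 156 and 156 on the control arrays, and fell by 1.19 (limma adjusted p = 0.0056). Its call was the only one of the 4 that held whichever array was left out, and it was the call that remained (1 in each case) without Eva1 shRNA array 1, Eva1 shRNA array 2 or control array 1. Tnip3, Zc3h12a and Tax1bp1, which restrain inflammatory signalling, had log2 changes of -1.10, -0.89 and -0.62 (adjusted p = 0.0332, 0.047 and 0.031), and the highest values with 1 array left out were 0.145 without Eva1 shRNA array 1, and 0.183 and 0.152 without Eva1 shRNA array 2. These 3 also missed the threshold with blank cells filled, and Zc3h12a and Tax1bp1 did under the authors' scaling. Zc3h12a missed it as well with robust eBayes (0.05002) and with every probe as its own unit (0.0575). With 16 units added the change of Tnip3 was -0.63, and without control array 1 that of Zc3h12a was -0.58. Tnfaip3, the gene of the feedback inhibitor A20 and chosen with its value known, showed a log2 change of -0.01 (adjusted p = 0.966).

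Among target genes of NF-κB, 9 rose, 5 fell and 15 did not pass, of 29 tested (48.3% passing, beside 26% of all genes). Their median log2 change was 0.40. Many of these genes answer to interferon or other signals as well. With the authors' scaling 12 rose and 4 fell, and with median centring 7 rose and 5 fell. The median level of the 29 was 7.73, beside 5.45 for all genes, so the shares are not of genes at equal levels. Without the dimmest 25% of probes 17 of 28 targets passed, beside 4537 of 10679 genes. Cxcl10 rose by 3.27, Vcam1 by 2.64 and Traf1 by 2.53, and Plau fell by 2.88 (limma adjusted p from 8.7392e-04 to 0.00116), with the call of each kept whichever array was left out. The control intensities of Traf1 (3.21 and 3.57) lay under the values below which 95% of the probes blank on some other array fell on those arrays (3.95 and 4.33). The Eva1 shRNA intensities of Plau (4.11 and 3.42) did so as well (5.09 and 5.05), so the size of each change rests on dim values. Ccl20 and Cxcl1, named after their values were seen, rose by 3.48 and 2.44 (limma adjusted p = 0.00133 and 0.0112). Their control intensities (3.62 and 2.67 for Ccl20, 1.73 and 2.55 for Cxcl1) lay under the same limits of the control arrays. With 16 units added the changes of Traf1 and Plau were 0.91 and -1.11. The targets that passed numbered 9 without Eva1 shRNA array 2 and 9 without control array 1. A short list held genes known as targets of the noncanonical arm in lymphoid stroma. Of 5 tested, 2 rose and 0 fell (40% passing, beside 26% of all genes). Cxcl12, a chemokine gene, had intensities of 28.6 and 23.8 on the Eva1 shRNA arrays, against 2.84 and 5.12 on the control arrays. Its log2 change was 2.57 (adjusted p = 0.00368), or 1.00 with 16 units added, and its value lay under that limit on control array 1 and above it on control array 2. Enpp2, which encodes the lysophospholipase autotaxin, had intensities of 239 and 143 on the Eva1 shRNA arrays, against 37.8 and 41.7 on the control arrays, a log2 change of 2.03 (adjusted p = 0.00535). Cxcl12 and Enpp2 passed whichever array was left out. Madcam1 and Cxcl13 had log2 changes of -0.34 and 0.13 and did not pass (adjusted p = 0.187 and 0.747). Levels of these genes do not separate the arms of the pathway.

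**Figure D4:**
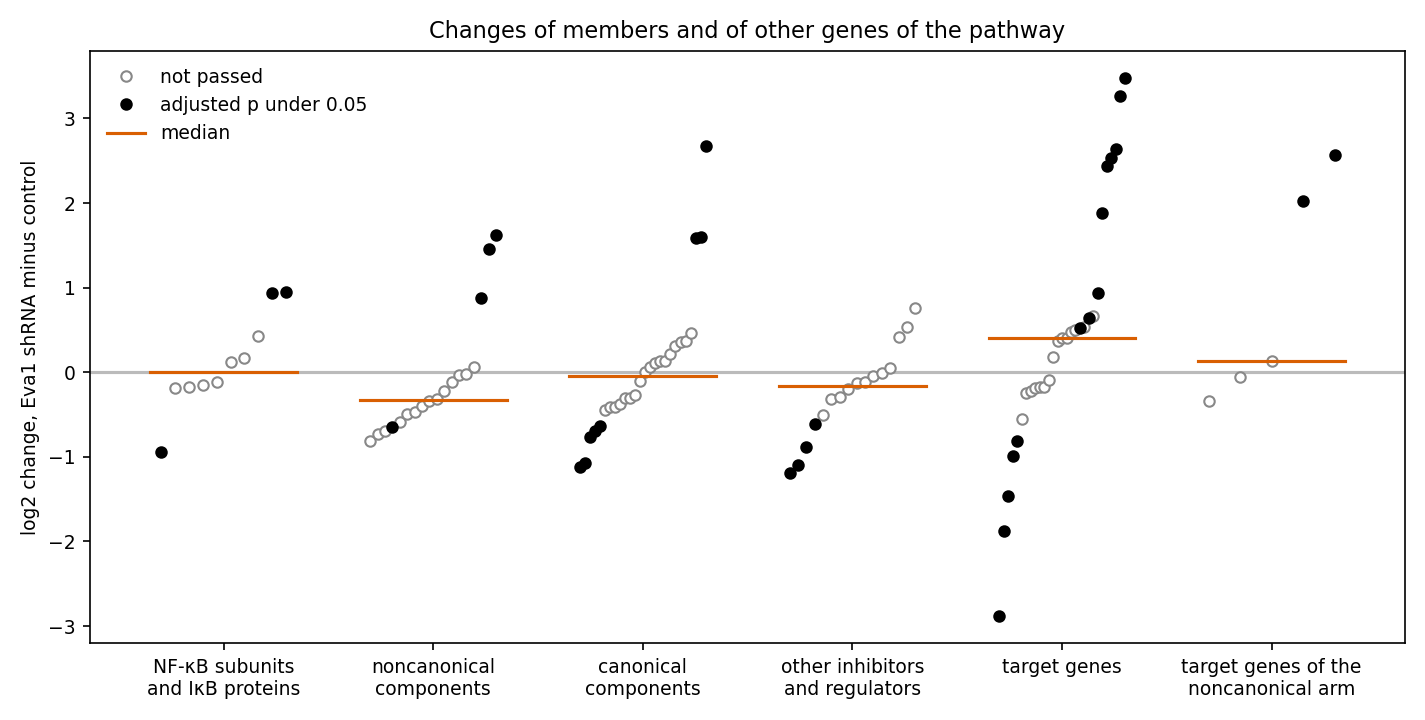
Log2 change (y axis, Eva1 shRNA minus control) of every tested gene of the family and of 5 lists around it, ordered by value within each list. Filled points passed the test and orange lines are medians. The family spans -0.95 to 0.95, and of the target genes that passed 9 lie above 0 and 5 below. Among them are Traf1, Plau, Ccl20 and Cxcl1, with the dim values given in the text.

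Myeloid cells express many NF-κB genes, and their markers were read beside these results. Of 10 myeloid markers, 7 were measured on all 4 arrays. Their summed deposited intensity was 349 to 362 in Eva1 shRNA cells and 319 to 337 in control cells, so the groups did not overlap. The same held for the sum over all genes tested, at 5466700 to 5705900 against 5048900 to 5233700. The myeloid sums are therefore no sign of a difference particular to these markers. Cd14 rose by 0.82 and Cd68 fell by 1.17 (limma adjusted p = 0.0169 and 0.0108), and the defining genes Ptprc, Itgam and Adgre1 were blank on 2, 2 and 3 arrays and at most 2.48 where they had a value. On the arrays, fewer cells of a type and less RNA per cell cannot be told apart, and the part of the myeloid genes in these results was not tested.

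Bcl3 (0.95) and Nfkbiz (-0.95) changed by nearly the same size, and Bcl3, larger in the third decimal, was taken as the member to match. With 16 units added Bcl3 had the smallest change of the 3 members that passed (0.32, against 0.70 for Nfkbie and -0.82 for Nfkbiz), as it did without control array 1 (0.61, against 1.14 and -1.19). With predicted genes and clone names passed over, the genes with the most similar pattern over the 4 arrays were Ttc7, Fst and Prpf19. Their root-mean-square differences of gene-centred log2 levels were 0.0262, 0.0313 and 0.034 on the log2 scale. Their log2 changes were 0.98, 0.99 and 0.98. Fst encodes follistatin, which binds activins, and Prpf19 encodes a splicing factor. The measure rests on 4 arrays, and the names passed over were among the 13765 genes tested.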

How the data were processed

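The deposited intensity values were scaled by the authors to a median near 25 per array, as the values show. Per the labels, Cy5-labelled RNA was hybridised to a 1-colour 3D-Gene mouse chip, while how background was corrected and why cells were left blank is not given in the sources used here. Of 23473 probes, 6.95% and 8.35% were blank on the Eva1 shRNA arrays and 12.0% and 10.8% on the control arrays. Log2 values of the 19199 probes filled on all 4 arrays were quantile normalized, because their array medians differed by 0.274. The probe with the highest mean stood for a gene (13765 genes). Groups were compared with lmFit and eBayes (limma 3.58.1, R 4.3.3), with 2 residual degrees of freedom, so the number of arrays limits the precision. Symbols came from the platform annotation (16631 probes with 1 symbol, 6842 with none, 0 with several). They were updated through RefSeq (GRCm38.p6), by which the older name of 3947 probes was replaced, while 59 probes with an ambiguous name kept it. Promoter sequences are RefSeq's. Figures used Python 3.11.15 and matplotlib 3.10.9.

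The members, the lists and the tests were chosen with earlier results of these data known. The naming rule took Mpzl2, all 10 members, and up to 4 genes of each list with the smallest p. It also took the 3 genes most like the member with the largest change that passed, with predicted genes and clone names passed over. The marker lists of lymphoid, endothelial and mesenchymal cells and the housekeeping genes had 1 of 5, 1 of 2, 1 of 5 and 2 of 5 tested genes passing. The housekeeping genes that passed were B2m, with a log2 change of -1.25, and Tbp, with 0.73 (limma adjusted p = 0.00448 and 0.0427). Actb, Hprt and Ppia did not pass. Array numbers are shared between the groups, but no label says that they pair arrays.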

Additional observations from a re-analysis of the deposited data

How the results depend on the processing

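The arrays were also processed with median centring, with the authors' scaling alone, without the dimmest 25% of probes, with 16 intensity units added before log2, with blank cells filled by each array's lowest value, with a replicate block, with a variance trend, with robust eBayes, by the mean of a gene's probes, with every probe as its own unit, at an adjusted p under 0.1 and with each array left out in turn. No member and no named list gene that passed in either setting changed sign under these alternatives. The 3 members that passed became 1 with blank cells filled. The 4 noncanonical components became 8 without the dimmest probes, 8 with 16 units added, 10 with the trend and 7 at the threshold of 0.1. The 4 other inhibitors and regulators became 7, 9, 8 and 7 under the same settings, with 2, 3, 3 and 2 of them higher, and 1 with blank cells filled. All genes passing also grew in number in these settings, from 3576 of 13765 to 4537 of 10679, and to 4914, 5000 and 5029 of 13765. With 1 array left out the ranges were 0 to 2 members, 1271 to 2301 genes in all, 2 to 4 noncanonical components, 2 to 4 canonical components (8 with all arrays), 1 to 4 inhibitors and regulators and 9 to 12 targets (14 with all arrays). These counts need not be of the same genes. Where an array is left out, the lone array of its group is assumed to vary like the others. The replicate block left 2 members and 3102 genes passing, and the adjusted p of Bcl3 was 0.0501 and that of Tax1bp1 0.0514. The deviations of same-numbered arrays correlated at -0.0093, so the numbers share no visible pairing. Blank cells limit what can be said of dim probes such as Bcl3.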

Other observations

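Some ligands and targets of the pathway had values on only part of the arrays and entered no test. Tnf, the gene of the canonical ligand, was blank on 1 array of each group and read 1.54 on the other Eva1 shRNA array and 4.20 on the other control array. Tnfsf13b, which encodes the noncanonical ligand BAFF, read 4.66 and 3.86 on the Eva1 shRNA arrays, against 1.64 on 1 control array, with the other control blank. Cd83, an activation marker, read 1.84 and 3.73 on the Eva1 shRNA arrays and was blank on both control arrays. Mmp9, a matrix protease gene, was blank on both Eva1 shRNA arrays and read 3.07 and 3.06 on the control arrays, and the same held for Cd40lg at 1.75 and 1.93. All of these values lie near the lowest intensities of the arrays (1.19 and 1.22 on the Eva1 shRNA arrays, 1.44 and 1.42 on the control arrays), and no fold is given.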
